A study of Homo sapiens with 6 samples.

Results

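The subunits of respiratory complexes II, III, IV and V were followed, with cytochrome c, in RNA-seq of K562 cells after knockdown of the long noncoding RNA lncRNA-IUR-5. The members were chosen by gene symbol, after each RefSeq protein accession of the table was matched to its gene, and each gene was represented by the accession row with the most reads. This gave 55 genes of the 19053 genes with a symbol, held in 113 of the 109018 rows. Of the 55 genes, 49 are encoded in the nucleus and 6 in mitochondrial DNA (mtDNA). Complex II has 4 of them, complex III 11, cytochrome c 1, complex IV 18 and complex V 21.

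K562 is an established human erythroleukemia cell line that carries the Bcr-Abl oncogene. Stable lines were made with a lentiviral vector that expresses a short hairpin RNA (shRNA), either against lncRNA-IUR-5, named lncRNA-IIRX in the sample labels (sh-IUR-5), or against luciferase, a gene that human cells lack (sh-luc). Each group has 3 libraries of total RNA and no drug is named for either group. Both groups share the cell line, the vector and an expressed hairpin. The knockdown rests on a single hairpin, and the sources used here do not say whether the lines were clones. The rows of the table are protein accessions, and the level of the lncRNA itself was not analysed here.

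The respiratory chain sits in the inner mitochondrial membrane. Complex II passes electrons from succinate to ubiquinone, complex III passes them on to cytochrome c, and complex IV delivers them to oxygen. Complexes III and IV pump protons, and complex V, the ATP synthase, uses the returning protons to make ATP. Complex II and cytochrome c are wholly nuclear-encoded, whereas complexes III, IV and V combine nuclear subunits with a few subunits that mitochondria transcribe and translate themselves. Erythroid cells are rich in heme, which complexes II, III and IV and cytochrome c carry as a cofactor.

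The libraries held 21023739 to 31481109 reads. The nuclear members took 1.26% to 1.29% of the reads with sh-luc and 1.09% to 1.16% with sh-IUR-5. The 6 mtDNA members took 5.04% to 5.62% and 5.58% to 6.04%. Of 15 K562 markers 14 passed the filter on low values. Levels are in RPKM (reads scaled to the coding length of the row and to the reads of the library). The marker levels summed here were further scaled with the TMM library factors explained below. Over all 15 markers the sum was 27089 to 30237 RPKM in sh-luc and 18442 to 19602 in sh-IUR-5. Among them 9 were lower and 2 higher in sh-IUR-5, with HBG2, a fetal globin, at a log2 fold change of -0.53. Of 13 markers of lymphocytes, fibroblasts, endothelium and monocytes only LYZ passed the filter, and it was not called (log2 fold change -0.08), while MS4A1 had 0 reads. The part of the erythroid markers' change in the results on the respiratory subunits was not tested.

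Most nuclear-encoded subunits of complexes III, IV and V had a lower level in sh-IUR-5 cells, and the subunits of complex II did not move together. The mtDNA-encoded subunits changed in both directions, from a log2 fold change of -0.34 for COX3 to 0.22 for COX1. Of 51 members that passed the filter of a mean of 1 RPKM, 36 were called lower and 2 higher (edgeR quasi-likelihood test, two-sided, Benjamini-Hochberg adjusted p under 0.05 over 38204 rows). Of the 45 nuclear members tested, 34 were lower and 1 was higher, with a median log2 fold change of -0.42 against sh-luc, a fall of 25.9%. The background was wide. Over all rows 18.1% were called lower, over 1 row per gene 23.5% were called lower and 22.4% higher, and the median log2 fold change over genes was -0.01. The level per cell cannot be read from these values, because fewer cells of a type and less RNA per cell cannot be told apart in bulk RNA. The extraction protocol in the labels speaks of 3 independent groups of cells, while the sample descriptions number libraries 2 and 3 of each group as 1 series apart from library 1, and what a series is they do not say. With a term for this series 39 members were lower. The p-values measure the spread between these libraries, which varied by 8.05% (the common biological coefficient of variation).

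Levels below are RPKM scaled with the library factors of edgeR's trimmed mean of M-values (TMM), which compare the libraries over the bulk of the rows. Summed over the 45 nuclear members tested, the level was 34450, 34923 and 35093 RPKM with sh-luc and 23057, 26633 and 25832 with sh-IUR-5, and the groups did not overlap. The ratio of the means was 0.723. The ratios were alike in complex III (0.714), complex IV (0.719) and complex V (0.715), and complex II stood apart at 0.986. The sum over the mtDNA members had a ratio of 0.923. Of single nuclear members, 39 of 45 had all 3 sh-IUR-5 values under the lowest sh-luc value, where 28.4% of all genes tested were.

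**Figure D1:**
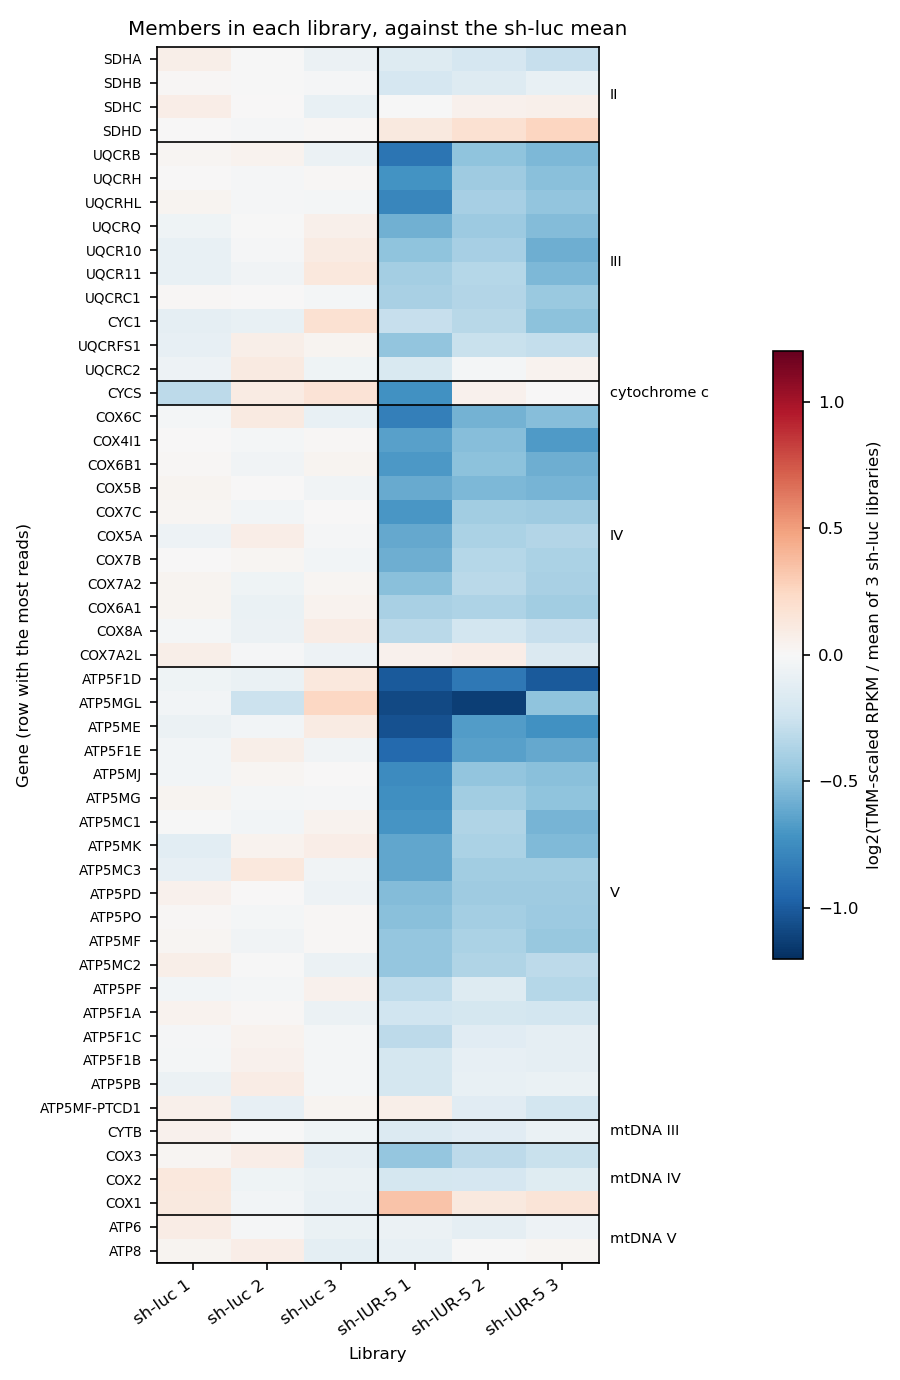
Heat map of the 51 members tested (rows, by complex) in the 6 libraries (columns). Color gives the log2 ratio of the TMM-scaled RPKM to the mean of the 3 sh-luc libraries, with blue below and red above that mean. Complexes III, IV and V of the nuclear block are blue in all 3 sh-IUR-5 libraries with few exceptions, and the first sh-IUR-5 library is the lowest of its group in 33 of 45 nuclear members.

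The first sh-IUR-5 library was the deepest and was the lowest of its group in 33 of the 45 nuclear members. Without it 36 members were still lower, and the nuclear median was -0.40. Leaving out each of the 6 libraries in turn gave 32 to 36 members lower and a nuclear median between -0.46 and -0.40.

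The choice of scaling sets the zero line. When the libraries were scaled to total reads, as the deposited RPKM is, the median over all genes moved to 0.19 and the nuclear median to -0.23. Under that scaling 28 members were lower and 5 higher, where 12.6% of all genes were lower. Relative to the shifted median over genes, 42 of the 45 nuclear members lay below it. That repeats the 42 with a negative sign under TMM, because the scaling moved every row by nearly the same amount. It is no separate support. The sign of 11 members changed with the scaling, and these are SDHB, UQCRC2, CYCS, ATP5F1B, ATP5F1C, ATP5PB, the readthrough row ATP5MF-PTCD1 and the mtDNA genes CYTB, COX2, ATP6 and ATP8. Of these 11 only COX2 was called under TMM.

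**Figure D2:**
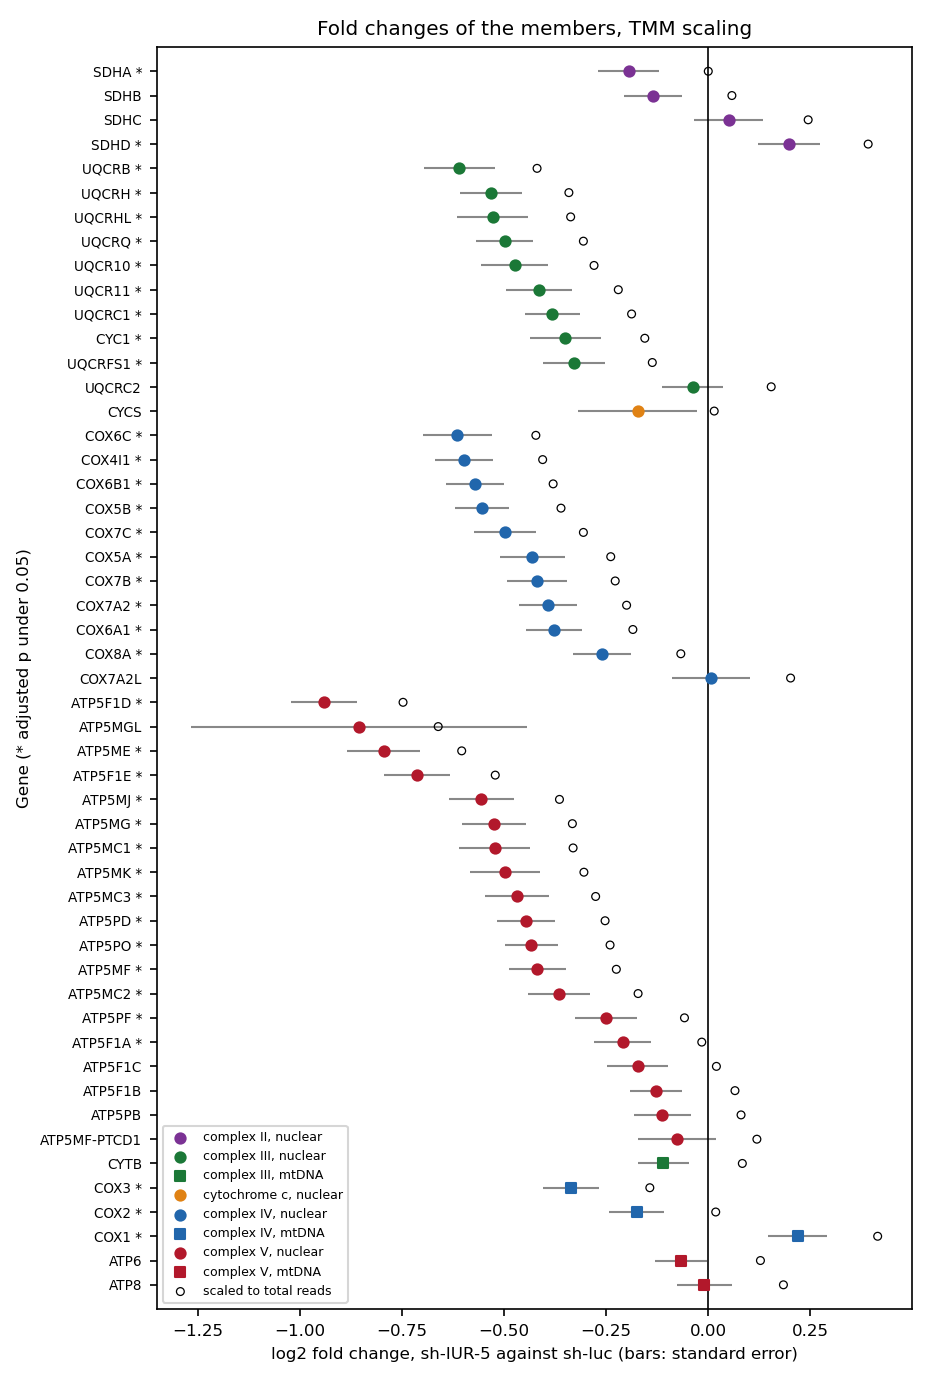
Log2 fold change of each member tested, sh-IUR-5 against sh-luc, under TMM scaling (filled circles nuclear, filled squares mtDNA, bars 1 standard error) and under scaling to total reads (open circles). Stars mark an adjusted p under 0.05, and the open circles lie to the right of the filled ones by about the shift of the median over all genes.

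Complex II, succinate dehydrogenase, showed no common direction. Its median log2 fold change was -0.04 over 4 subunits. SDHD, a membrane anchor subunit, had 124, 122 and 124 RPKM in sh-luc and 133, 140 and 147 in sh-IUR-5. The 3 sh-IUR-5 values all lay above the highest sh-luc value, by a log2 fold change of 0.20 (SE 0.08, adjusted p = 0.0461). SDHA, the flavoprotein that binds succinate, had 48.0, 45.6 and 43.6 RPKM in sh-luc and 41.2, 39.7 and 37.8 in sh-IUR-5. It was lower by a log2 fold change of -0.20 (adjusted p = 0.0496), and the groups did not overlap. Both calls lie next to the threshold. Leaving out a library kept each in 1 of 6 cases, and with DESeq2 the adjusted p was 0.0802 for SDHD and 0.0528 for SDHA. Scaled to total reads, SDHD stood at 0.39 (edgeR, adjusted p = 0.00026), whereas SDHA stood at -2.6e-05 and was not called. After trends with length and GC content were removed, SDHD stood at 0.38 (edgeR, adjusted p = 0.00051) and SDHA at -0.25 (adjusted p = 0.0067). SDHB, the iron-sulfur subunit, stood at 185 ± 1.28 RPKM (SD, n = 3) in sh-luc and 167 ± 6.99 in sh-IUR-5 and was not called, although the groups did not overlap. SDHC, the other membrane anchor, stood at 61.7 ± 3.74 and 63.4 ± 1.499 RPKM and was not called either.

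The 2 called subunits could also be compared within a library, where the scaling plays no part. The ratio of SDHD to SDHA in RPKM was 2.58, 2.68 and 2.85 in sh-luc and 3.24, 3.52 and 3.90 in sh-IUR-5. This pair was chosen after its values were seen, so the ratio is a description. The 4 accession rows of SDHD had log2 fold changes of 0.16 to 0.33 and 3 of them were called higher, whereas SDHA had 2 of 4 rows called lower and a highest value of 0.02. Rows of 1 gene can share reads, so they are not independent.

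In complex III, the cytochrome bc1 complex, 9 of the 10 nuclear rows were lower (90%), with a median log2 fold change of -0.44. These rows include UQCRHL, a copy of UQCRH that is treated below. Of all genes 23.5% were lower. Of all genes with at most 600 coding bases and a mean of at least 100 RPKM 76.6% were lower. UQCRB, a small subunit at the ubiquinone-binding part of the complex, had 1025, 1045 and 965 RPKM in sh-luc and 553, 722 and 697 in sh-IUR-5. Its fold change was the largest of the complex, at -0.61 (SE 0.09, adjusted p = 2.97e-05), and the groups were far apart. UQCRH, the hinge protein next to cytochrome c1, was the most abundant nuclear subunit, at 1888 ± 23.5 RPKM in sh-luc and 1294 ± 132 in sh-IUR-5 (log2 fold change -0.53, adjusted p = 2.90e-05). UQCRQ fell by 0.50, UQCR10 by 0.47 and UQCR11 by 0.41 on the log2 scale, all small subunits without a redox group.

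The catalytic and core subunits of complex III are longer. CYC1, cytochrome c1, went from 186 ± 21.6 to 144 ± 10.8 RPKM (log2 fold change -0.35, adjusted p = 0.00379), and UQCRFS1, the Rieske iron-sulfur protein, from 380 ± 23.2 to 299.9 ± 23.3 (-0.33, adjusted p = 0.00234). UQCRC1, a core protein, went from 292 ± 4.47 to 222 ± 7.38 RPKM, a log2 fold change of -0.38. Its partner UQCRC2 stood at 303 ± 19.8 and 293 ± 23.0 RPKM and was not called (-0.04, adjusted p = 0.719). The order of the changes within the complex was not tested and was different after trends with length and GC content were removed, when UQCR10 stood at -0.04, UQCR11 at 0.05 and UQCRQ at -0.21, against -0.21 for CYC1, -0.25 for UQCRFS1 and -0.36 for UQCRC1. CYCS, cytochrome c, had 571, 763 and 799 RPKM in sh-luc and 431, 735 and 711 in sh-IUR-5. The first library was the lowest of each group, the groups overlapped, and its log2 fold change of -0.17 (SE 0.15, adjusted p = 0.374) was not called.

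One row of complex III belongs to a copy of another gene. UQCRHL is an intronless copy of UQCRH that has a single coding exon at chr1:15807377-15807649 on the minus strand, whereas the coding sequence of UQCRH runs over 4 exons at chr1:46303767-46316581 on the plus strand (hg38). Over 276 bases with the stop codon the coding sequences differ at 4 bases, an identity of 98.6%. They are shown because a read that covers none of these 4 bases fits both genes equally. Capitals mark the differing bases.
UQCRH: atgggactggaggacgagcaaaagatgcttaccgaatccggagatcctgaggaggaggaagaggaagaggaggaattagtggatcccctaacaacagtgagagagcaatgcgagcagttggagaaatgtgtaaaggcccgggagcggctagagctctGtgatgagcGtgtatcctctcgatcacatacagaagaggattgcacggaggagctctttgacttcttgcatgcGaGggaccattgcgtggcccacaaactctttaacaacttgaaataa
UQCRHL: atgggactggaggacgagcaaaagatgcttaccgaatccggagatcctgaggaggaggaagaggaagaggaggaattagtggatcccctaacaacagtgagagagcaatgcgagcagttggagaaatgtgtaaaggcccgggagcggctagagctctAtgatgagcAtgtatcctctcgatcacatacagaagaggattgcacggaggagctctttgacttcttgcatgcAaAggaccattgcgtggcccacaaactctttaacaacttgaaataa
At all 4 places UQCRH has G and the copy has A. Reads given to UQCRHL were 34.2% to 36.7% of those given to UQCRH in every library of both groups, and the log2 fold change of UQCRHL (-0.53, adjusted p = 0.000128) was that of UQCRH to the second decimal. The rule for reads that fit more than 1 row is not given in the sources used here, so the expression of the copy is uncertain.

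In complex IV, cytochrome c oxidase, 10 of the 11 nuclear subunits tested were lower (90.9%), with a median log2 fold change of -0.43. Beside this stand 23.5% of all genes and 76.6% of the short and abundant genes. COX6C, which has no known tissue isoform, had 690, 757 and 663 RPKM in sh-luc and 399, 475 and 493 in sh-IUR-5. It fell most in this complex, by 0.61 on the log2 scale (SE 0.08, adjusted p = 2.17e-05), and the lowest sh-luc library lay well above the highest sh-IUR-5 library. COX4I1, the subunit that binds ATP as a regulator, went from 529 ± 7.99 to 346 ± 22.0 RPKM (log2 fold change -0.60, adjusted p = 4.81e-06). All 6 accession rows of COX4I1 were lower, from -0.84 to -0.44.

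The other nuclear subunits surround the catalytic core. COX6B1, which faces the intermembrane space, fell by 0.57, COX5B, which binds zinc, by 0.55, COX7C by 0.50, COX5A by 0.43 and COX7B by 0.42 on the log2 scale. COX7C was the most abundant nuclear subunit of the complex per length, at 3152 ± 57.0 RPKM in sh-luc and 2213 ± 234 in sh-IUR-5. COX8A, the smallest change among those called, went from 1284 ± 73.9 to 1062 ± 37.9 RPKM (log2 fold change -0.26, adjusted p = 0.00775).

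Complex IV has subunits that exist in tissue-specific forms, and 1 form of each carried nearly all reads. COX6A1 stood at 1069 ± 49.1 RPKM in sh-luc and 815 ± 11.8 in sh-IUR-5 (log2 fold change -0.38), while the heart and muscle form COX6A2 had 0 reads in all 6 libraries. COX6B2, the testis form, had 2, 2 and 2 reads in sh-luc and 2, 3 and 5 in sh-IUR-5, against COX6B1 at 1728 ± 49.7 and 1152 ± 77.3 RPKM. COX7A1, the muscle form, had 7, 0 and 0 reads and 3, 0 and 4 reads, and COX7B2 had 1, 2 and 8 reads and 4, 1 and 1 reads. These 4 genes did not pass the filter. COX7A2, the widely expressed form, went from 1118 ± 34.3 to 844 ± 53.1 RPKM (-0.39). COX7A2L, a related protein that joins complexes III and IV into supercomplexes, stood at 57.6 ± 2.69 and 57.3 ± 5.41 RPKM (log2 fold change 0.01, adjusted p = 0.967) and was the only one of the 11 tested that was not called.

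In complex V 14 of 19 nuclear rows were lower (73.7%), none was higher, and the median log2 fold change was -0.45. Of all genes 23.5% were lower. Of genes with at most 600 coding bases and a mean of at least 100 RPKM 76.6% were lower, with a median of -0.42. Not all 19 rows are that short and abundant. The 3 largest falls among the members called were in complex V. ATP5F1D, the delta subunit of the F1 stalk, had 244, 239 and 276 RPKM in sh-luc and 126, 140 and 126 in sh-IUR-5. The groups lay far apart, with a log2 fold change of -0.94 (SE 0.08, adjusted p = 2.05e-07). ATP5ME, subunit e of the membrane part, had 875, 899 and 988 RPKM in sh-luc and 447, 577 and 556 in sh-IUR-5 (log2 fold change -0.79, SE 0.09, adjusted p = 2.65e-06). ATP5F1E, the epsilon subunit that binds next to delta, had 2518, 2697 and 2508 RPKM in sh-luc and 1345, 1643 and 1682 in sh-IUR-5 (-0.71, SE 0.08, adjusted p = 3.24e-06). None of these 3 groups of libraries overlapped, and each call held when any 1 library was left out.

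The 5 subunits of the F1 head and stalk spanned the range of the complex. ATP5F1A, the alpha subunit, went from 107 ± 4.34 to 91.5 ± 1.00 RPKM (log2 fold change -0.21, adjusted p = 0.0239). ATP5F1B, the catalytic beta subunit, stood at 1371 ± 42.5 and 1243 ± 52.4 RPKM and was not called (-0.13, adjusted p = 0.127), and neither was ATP5F1C, the gamma shaft (-0.17, adjusted p = 0.0750). The groups did not overlap for either of them. The ratio of ATP5F1D to ATP5F1B within a library, chosen after the values were seen, was 0.182, 0.168 and 0.205 in sh-luc and 0.107, 0.110 and 0.0992 in sh-IUR-5. The level of ATP5F1A is understated by its row, since 5 rows share the gene, while ATP5F1B has 1 row. The means of these 5 rows over the 6 libraries sum to 485 RPKM without the TMM factors.

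Of the 12 other subunits of the peripheral stalk and membrane part, 11 were lower (91.7%), with a median log2 fold change of -0.46, beside 76.6% of the short and abundant genes. ATP5PO, which ties the stalk to the head, fell by 0.43, ATP5PD by 0.45 and ATP5PF by 0.25 on the log2 scale. ATP5PB, the stalk's long subunit b, was not called (-0.11, adjusted p = 0.218), although its groups did not overlap. ATP5MG fell by 0.52, ATP5MF by 0.42, ATP5MJ by 0.56 and ATP5MK by 0.50. The proton-carrying ring of subunit c is encoded by 3 genes for 1 mature protein, and all 3 were lower, ATP5MC1 by -0.52, ATP5MC3 by -0.47 and ATP5MC2 by -0.37. Over the last 228 coding bases ATP5MC1 and ATP5MC2 share 89.0% of bases and each shares 81.1% with ATP5MC3. ATP5MC3 carried the most message, at 844 ± 70.4 RPKM in sh-luc, against 172 ± 4.27 for ATP5MC1 and 154 ± 7.74 for ATP5MC2. Another pair of rows matches only the names, ATP5MGL, a copy of ATP5MG at 0.644 to 1.67 RPKM, and ATP5MF-PTCD1, a readthrough row at 10.2 to 12.5 RPKM. Neither was called.

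**Figure D3:**
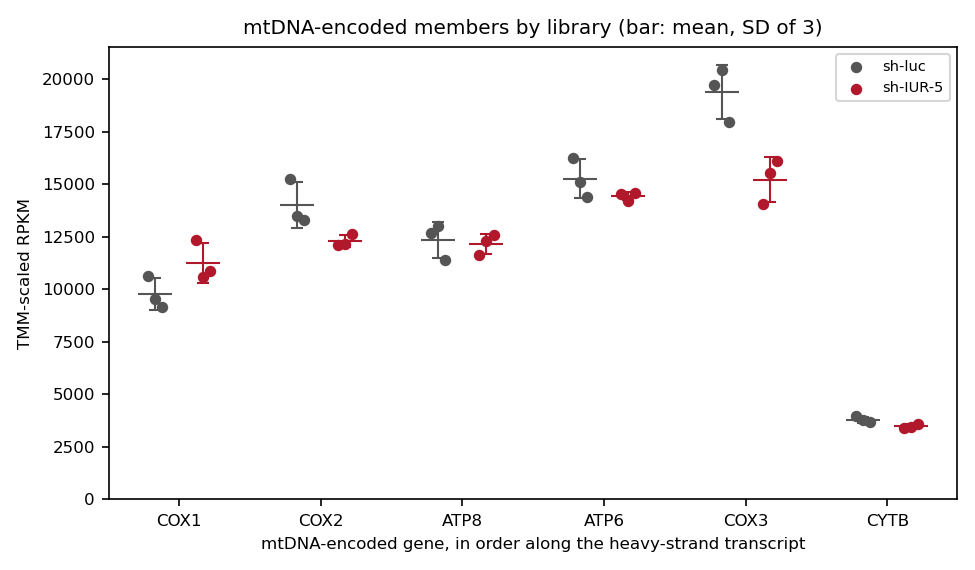
TMM-scaled RPKM of the 6 mtDNA-encoded members in each library (points), with the mean and SD of the 3 libraries of a group (bars), in the order of the genes along mtDNA. COX3, COX2 and CYTB are lower in all sh-IUR-5 libraries than in any sh-luc library, and CYTB was not called. COX1 is higher on average with overlapping groups, and ATP8 and ATP6 overlap.

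The 6 mtDNA-encoded members were the most abundant of all members per length. Of them 2 were lower and 1 higher, with a median log2 fold change of -0.09, which became 0.11 under scaling to total reads. They are cut from long transcripts of the heavy strand, in the order COX1, COX2, ATP8, ATP6, COX3 and CYTB. COX3 had 19756, 20463 and 17978 RPKM in sh-luc and 14042, 15556 and 16090 in sh-IUR-5. The groups did not overlap, and it was lower by a log2 fold change of -0.34 (SE 0.07, adjusted p = 0.000899), and also when scaled to total reads (-0.14, adjusted p = 0.0284). COX2 stood at 14019 ± 1082 RPKM in sh-luc and 12299 ± 294 in sh-IUR-5, a log2 fold change of -0.18 (adjusted p = 0.0446) that became 0.02 under scaling to total reads and held in 1 of 6 cases when a library was left out.

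COX1 was the one mtDNA-encoded member called higher. It had 10614, 9524 and 9174 RPKM in sh-luc and 12352, 10566 and 10873 in sh-IUR-5. The second sh-IUR-5 library lay just under the first sh-luc library, so the groups overlapped, and the log2 fold change was 0.22 (SE 0.07, adjusted p = 0.0245). It held in 3 of 6 cases when a library was left out, and was 0.41 under scaling to total reads. After the trends with length and GC content were removed it was 0.04. The ratio of COX1 to COX3 within a library was 0.537, 0.465 and 0.510 in sh-luc and 0.880, 0.679 and 0.676 in sh-IUR-5. This pair, which encodes core subunits of the same enzyme, was chosen after its values were seen.

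CYTB, the mtDNA-encoded cytochrome b of complex III, stood at 3790 ± 141 RPKM in sh-luc and 3479 ± 104 in sh-IUR-5. It was not called (-0.11, adjusted p = 0.177), although the groups did not overlap. ATP6, which lines the proton path of complex V, had a log2 fold change of -0.07 and ATP8, its small partner, one of -0.01, with adjusted p = 0.433 and 0.927. Both are read from 1 transcript and their coding sequences overlap by 46 bases at chrM:8527-8572 on the plus strand, which is 22.2% of ATP8 and 6.76% of ATP6. The overlap is shown because reads inside it fit both rows. Capitals mark the start codon of ATP6 and the stop codon of ATP8.
ATP8 and ATP6 overlap: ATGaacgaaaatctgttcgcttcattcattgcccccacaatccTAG
The 2 values are thus not independent of each other.

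**Figure D4:**
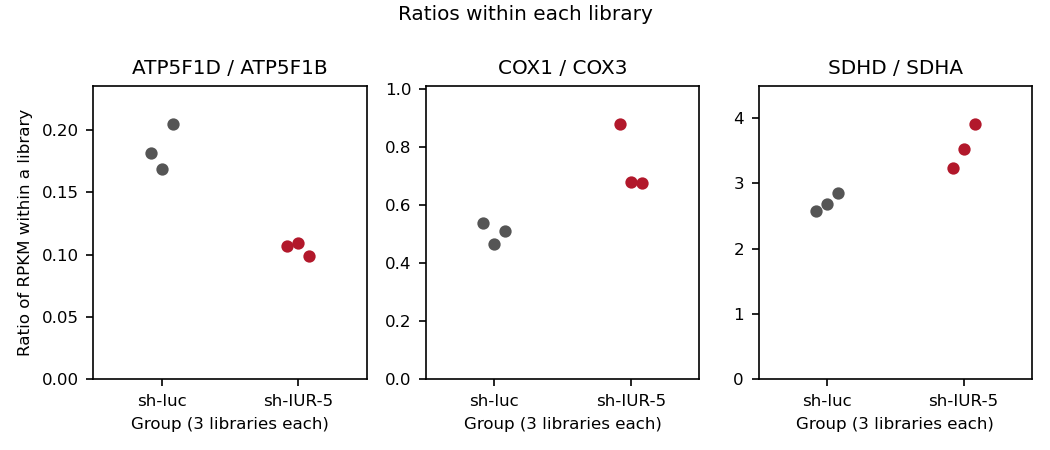
Ratio of RPKM between 2 members within each library (points, 3 libraries a group), for ATP5F1D over ATP5F1B, COX1 over COX3 and SDHD over SDHA. The vertical axes start at 0, and the groups do not overlap in any panel. The pairs were chosen after their values were seen.

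**Figure D5:**
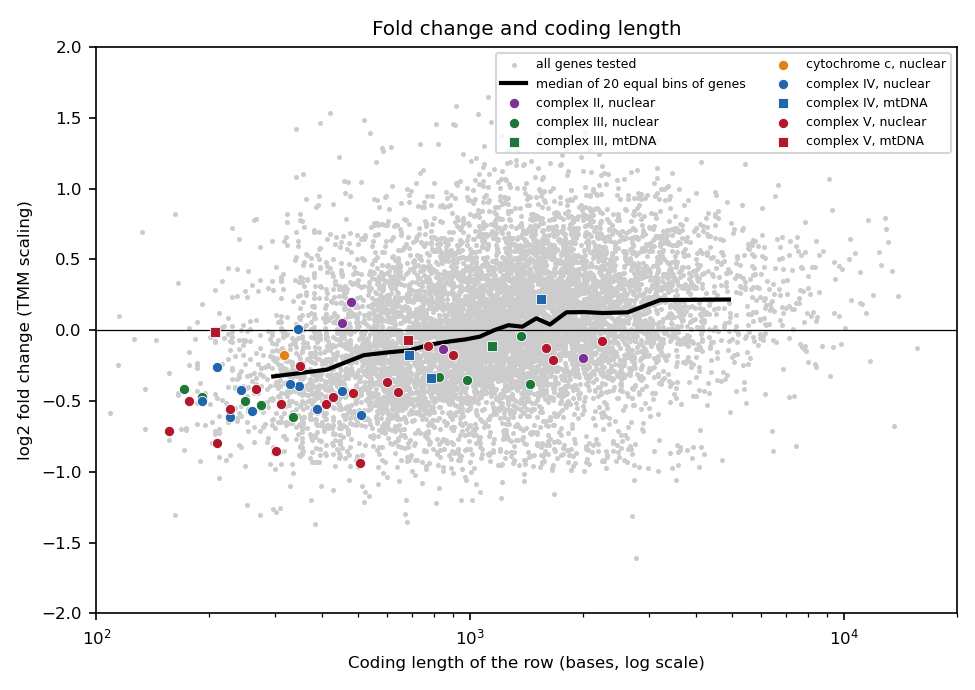
Log2 fold change under TMM scaling against the coding length of the row in bases (log axis) for all genes tested (grey, 5 genes outside the axes) and the members (circles nuclear, squares mtDNA, colored by complex). The black line is the median of 20 equal bins of genes, which runs from -0.33 in the bin with the shortest rows to 0.22 in the bin with the longest.

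Most nuclear members are short and abundant, and over the whole table short and abundant genes were lower too. The median coding length of the nuclear members tested was 351 bases. Of all genes with at most 600 coding bases 43.1% were called lower, with a median log2 fold change of -0.24, and of the 33 nuclear members this short 28 were lower, with a median of -0.50. Of all genes with a mean of at least 100 RPKM 66.5% were called lower, with a median of -0.34, and of the 39 nuclear members at that level 32 were lower (82.1%), with a median of -0.43. Of genes that were both short and abundant 76.6% were called lower, with a median of -0.42, beside 28 of 30 nuclear members (93.3%) and a median of -0.50. The median of the members lay closer to that of short, abundant genes than to that of all genes.

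Length also ordered the members among themselves. The 12 nuclear members over 600 bases had a median log2 fold change of -0.18, with 6 lower, against -0.50 for the 33 shorter ones. When each library's trends with coding length and GC content were removed, the medians were -0.24 for the shorter and -0.24 for the longer members. Then 36 members were lower, 31 of them among the 36 lower before, where 23.1% of all genes were lower. A trend with level was not removed, and 39 of the 45 nuclear members tested have a mean of at least 100 RPKM. The share over all genes is therefore not a background of like level. Newly lower were ATP5F1B (-0.23, adjusted p = 0.00512), ATP5F1C (-0.26, adjusted p = 0.00377), ATP5PB (-0.15, adjusted p = 0.0424), UQCRC2 (-0.19, adjusted p = 0.0234) and CYTB (-0.23, adjusted p = 0.00399), and ATP8 was called higher (0.21, adjusted p = 0.00998). No longer called were UQCR10, UQCR11, COX6A1, ATP5PF and COX1. COX8A changed sign to 0.21, now called higher, and UQCR11 to 0.05. Their rows have 210 and 171 bases, with a GC content of 65.7% and 61.3%. Both trends were removed together, so the parts of length and GC content in these changes cannot be told apart. ATP5F1D kept -0.65, ATP5F1E -0.47, ATP5ME -0.44, UQCRB -0.49 and COX4I1 -0.43. Whether the trend with length comes from the cells or from the libraries was not tested.

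The calls for single members differed in how well they held. Of the 36 members lower, 24 were lower in each of the 20 fits made, and they include ATP5F1D, ATP5ME, ATP5F1E, UQCRB, COX6C and COX4I1. DESeq2 called 34 of the 36, and 31 held when any 1 library was left out. The 12 that did not hold in every fit were SDHA, CYC1, UQCRFS1, UQCR10, UQCR11, COX6A1, COX8A, ATP5F1A, ATP5MC2, ATP5PF and the mtDNA genes COX2 and COX3. No member called lower had another accession row that was called higher.

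The promoters of nuclear respiratory genes are known for sites of NRF1, of the ETS factor GABP (NRF2) and of YY1. RefSeq windows of 300 bases, from 250 before to 50 after the start of transcription (GRCh38.p14), matched 37 of the 49 nuclear members, with 43 windows in all. The letters searched on both strands were GCGCANGCG for NRF1, CCGGAAG for ETS factors and AANATGGCG for YY1. NRF1 letters were in 13 windows of the members (30.2%) beside 9.64% of all 22199 windows and 15.1% of the 10083 windows of genes tested. ETS letters were in 17 (39.5%) beside 12.8% and 20.6%, and YY1 letters in 7 (16.3%) beside 4.24% and 7.55%. At least 1 of the 3 was in 25 windows (58.1%), beside 23.3% and 37.1%. A palindromic NRF1 match can be counted on both strands at neighbouring positions. No test was made of these shares, and a match is not a bound site.

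The windows of 4 members are shown, with the matched letters in capitals: the member with the largest fall that has a window, a subunit of complex IV that fell, the only nuclear member that rose and its partner that fell. ATP5ME lies at chr4:674227-674526 on the minus strand and holds 3 NRF1 matches and 1 ETS match. COX5B lies at chr2:97645812-97646111 on the plus strand and holds 2 ETS matches. SDHD lies at chr11:112086623-112086922 on the plus strand, where a palindrome gives both NRF1 matches beside 1 ETS match. SDHA lies at chr5:218070-218369 on the plus strand and holds 4 NRF1 matches.
ATP5ME: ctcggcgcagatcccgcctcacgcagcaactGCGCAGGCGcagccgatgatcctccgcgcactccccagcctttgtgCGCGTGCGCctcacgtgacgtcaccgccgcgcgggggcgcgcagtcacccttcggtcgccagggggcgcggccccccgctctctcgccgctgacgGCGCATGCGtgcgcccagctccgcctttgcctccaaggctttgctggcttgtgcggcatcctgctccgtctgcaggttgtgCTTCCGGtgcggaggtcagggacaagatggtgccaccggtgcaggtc
COX5B: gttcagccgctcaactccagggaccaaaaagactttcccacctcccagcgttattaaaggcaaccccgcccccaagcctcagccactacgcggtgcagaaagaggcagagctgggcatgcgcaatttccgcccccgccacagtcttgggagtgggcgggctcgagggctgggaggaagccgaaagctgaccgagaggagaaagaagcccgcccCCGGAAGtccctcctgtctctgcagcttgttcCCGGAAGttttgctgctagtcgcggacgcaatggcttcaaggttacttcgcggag
SDHD: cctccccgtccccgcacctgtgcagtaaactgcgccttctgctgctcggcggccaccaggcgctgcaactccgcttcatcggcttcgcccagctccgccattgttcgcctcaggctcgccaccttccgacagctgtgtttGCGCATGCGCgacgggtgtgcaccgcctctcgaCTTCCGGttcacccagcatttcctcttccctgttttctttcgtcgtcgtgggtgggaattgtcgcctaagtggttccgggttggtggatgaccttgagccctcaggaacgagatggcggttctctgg
SDHA: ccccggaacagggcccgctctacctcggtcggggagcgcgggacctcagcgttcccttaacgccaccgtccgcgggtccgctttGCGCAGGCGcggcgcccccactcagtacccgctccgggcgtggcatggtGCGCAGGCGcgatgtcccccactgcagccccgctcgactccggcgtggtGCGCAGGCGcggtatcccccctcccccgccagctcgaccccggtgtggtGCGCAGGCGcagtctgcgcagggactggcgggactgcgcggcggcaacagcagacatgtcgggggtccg
NRF1 letters thus stood in windows of members that fell (ATP5ME, SDHA) and of the one that rose (SDHD).

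The assembly factors of the same complexes moved in both directions. Of 46 factors tested 20 were lower (43.5%) and 4 higher (8.70%), beside 23.5% and 22.4% of all genes. Of the 46, 30 have at most 600 coding bases, and 16 of these 30 were lower, where 43.1% of all genes this short were. The median log2 fold change of the list was -0.26, which was -0.06 with 11 lower and 9 higher under scaling to total reads. The factors with the largest falls were PET100, which helps to assemble complex IV (-0.92, adjusted p = 1.38e-06), UQCC5 of complex III (-0.89, adjusted p = 0.000283), FMC1 of complex V (-0.77, adjusted p = 1.72e-05) and ATP5IF1, the protein that inhibits the F1 head (-0.77, adjusted p = 3.51e-07). ATP5IF1 stood at 940 ± 25.0 RPKM in sh-luc and 548 ± 28.5 in sh-IUR-5. Higher were TTC19, which clears fragments of the Rieske protein from complex III (0.70, adjusted p = 0.000230), the heme A enzymes COX15 (0.48) and COX10 (0.46), and LYRM7, a chaperone of the Rieske protein (0.29). None of the 4 assembly factors of complex II was called.

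Of 35 genes for mtDNA expression and mitochondrial biogenesis 31 were tested, and 5 were lower (16.1%) and 4 higher (12.9%), shares under the 23.5% and 22.4% of all genes. The median log2 fold change was 0.02. This median was 0.21, with 3 lower and 10 higher, when libraries were scaled to total reads. Higher were GABPA, the DNA-binding subunit of GABP (0.76, adjusted p = 0.000355), TFB2M, a mitochondrial transcription factor (0.33), FASTKD3, an RNA-binding protein of mitochondria (0.32), and YY1 (0.31). GABPA was a low row, at 2.17 ± 0.115 RPKM in sh-luc and 3.65 ± 0.283 in sh-IUR-5. Lower were POLG2, an accessory subunit of the mtDNA polymerase (-0.56), SLIRP, which stabilises mitochondrial mRNA (-0.43), SSBP1, which binds single-stranded mtDNA (-0.41), HSD17B10 (-0.39) and the RNA polymerase POLRMT (-0.22). TFAM, which packages mtDNA, was not called (0.09, adjusted p = 0.508), nor was NRF1 (0.43, adjusted p = 0.0577), and the coactivator PPARGC1A had 0 reads.

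The carriers that feed complex V were lower by small amounts. Of 7 carriers and porins 4 were lower and 1 higher. Of the 4 with a mean of at least 100 RPKM 3 were lower, where 66.5% of all genes at that level were, so the count does not set the list apart. The median log2 fold change over all 7 was -0.20. For all genes with a mean of at least 100 RPKM, a level that 4 of the 7 reached, it was -0.34. Under scaling to total reads the median of the 7 was -0.01, with none lower and 2 higher. SLC25A4 (-0.30), SLC25A6 (-0.25) and SLC25A5 (-0.20) exchange ADP and ATP, and SLC25A3 (-0.22) imports phosphate. The porin VDAC1 was higher (0.33, adjusted p = 0.00882), while VDAC2 and VDAC3 were not called.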

How the data were processed

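RNA-seq was done on 3 sh-luc and 3 sh-IUR-5 libraries of K562 cells, grouped by the sample labels. The authors trimmed the reads, mapped them to hg38 and counted reads per RefSeq protein accession, and the deposited counts are not normalized. The deposited RPKM could be recomputed from the counts, the row lengths and each library's sum of reads. The submitters' processing notes name CASAVA 1.8, Trimmomatic 0.32, Bowtie2 2.1.0 and SAMtools 0.1.19. The strand setting and how multiply fitting reads were assigned are not given in the sources used here. The row lengths are coding lengths, since 99.8% are multiples of 3. The authors' table of their own comparison (pooled reads and RPKM, fold change, p-value, q-value) was not used.

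Accessions were matched to genes with RefSeq (GRCh38.p14), ignoring versions, which gave a symbol to 64.7% of rows. Rows with a mean of at least 1 RPKM were tested with edgeR 4.0.16 (R 4.3.3, TMM, quasi-likelihood, two-sided), and p-values were adjusted over 38204 rows. DESeq2 1.42.0, limma 3.58.1 on log2(RPKM + 0.1), other scalings and filters, rows per gene, a replicate block, a term for the label series and the removal of trends with coding length and GC content (mgcv 1.9.3) were alternatives. As a check of the code, edgeR was also run on simulated counts with the depth of these 6 libraries and a common dispersion taken from the main fit. Few rows were changed there, with balanced signs, so the check does not cover changes as wide as those found here. The members, the gene lists and the rule for named genes (all mtDNA members, members past the threshold with the largest in each direction per library, tissue forms, and up to 4 genes per list and direction) were chosen with earlier results of these data known. Pairs for ratios were chosen after their values were seen. Precision is limited by 3 libraries a group.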

Additional observations from a re-analysis of the deposited data

How the results depend on the processing

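The number of members lower ranged from 28 to 39 over all alternatives, against 36. The number of members higher, 2 in the analysis reported, was 1 with DESeq2 size factors, 5 with total reads, 0 with the DESeq2 test, 4 with limma and 0 with no filter, and 0 to 2 when a library was left out. The nuclear median of -0.42 became -0.228 with total reads, -0.23 with limma, -0.473 with no filter, -0.306 with a filter at a mean of 5 RPKM and -0.241 with trends removed. The mtDNA median of -0.09 became 0.106 with total reads, 0.106 with limma and 0.026 with the filter at 5 RPKM. Of all rows tested, 14256 were called, and 7356 with the filter at 5 RPKM, 3995 with 1 accession per gene, 4407 with sums over accessions and 3653 with trends removed, where fewer rows were tested. The mtDNA expression list, 9 called, had 15 with sums over accessions. The carriers and porins, 5 called, had 2 with total reads, 2 with limma, 1 with the filter at 5 RPKM and 1 to 5 when a library was left out.

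With total reads 11 members changed sign, 8 of them called under neither scaling. Among members called on either side, signs changed for COX2 (0.018 with total reads, 0.021 with limma), ATP6 (0.128 with total reads) and ATP8 (0.184 with total reads, 0.186 with limma, 0.208 with trends removed), and with trends removed for UQCR11 (0.052) and COX8A (0.214). Total reads and limma on RPKM both keep the library total as the scale, and the cause of the other changes was not tested.

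Replicate numbers are shared between the groups, but deviations of same-numbered libraries correlated at 0.31, 0.088 and -0.013. Not every library correlated best with its own number, so the numbers were not taken to pair the samples. The remaining pairs within a label series correlated at 0.10 and 0.23, and pairs across series at -0.27 to -0.07. Deviations were thus more alike within a series. The main fit has no term for the series, and with that term 17924 rows were called. With a replicate block 16831 rows and 37 members lower were called. The block gained ATP5F1C (adjusted p = 0.0348) and CYCS (0.0241) and lost COX2 (0.0619). The series term gained ATP5F1C (0.0101), CYCS (0.00598) and SDHB (0.0429), all by edgeR. With trends removed and the replicate block, 4466 rows were called, 5 members were higher, the nuclear median was -0.242, 19 genes of the mtDNA expression list were called, and ATP8 was at 0.21, UQCR11 at 0.056 and COX8A at 0.212.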
